A study of Danio rerio with 17 samples.

Results

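MLCs, a population of cells picked by hand from adult zebrafish epidermis, were compared with T cells picked from the same tissue across all genes. The comparison took every column of the count table that belonged to these groups, 7 libraries of the 17 in the series. The 4 MLC libraries came from adult fish with the transgenes hsp70:mCherry-T2a-CreERT2 and, in the same line, mpeg1:loxP-DsRedx-loxP-GFP. In that line a heat-shock promoter drives an inducible Cre recombinase, and the macrophage promoter mpeg1 drives a fluorescent protein whose colour Cre switches. The 3 T cell libraries came from adult fish of the line Tg(lck:DsRedx), in which the lymphocyte kinase promoter lck drives a red fluorescent protein. The labels used here neither spell out MLC nor say how many cells or fish went into a library, whether a heat shock was given, or which colour the MLCs carried. Cell group and transgenic line therefore cannot be told apart, and p-values measure the spread between libraries, which may be technical. The rest of the series holds 4 libraries of cLCs from the MLC line, 3 of keratinocytes from Tg(krt4:lyn-GFP) and 3 of neutrophils from Tg(lyz:GFP). Cells were lysed directly, and their RNA was amplified by SMART-seq2, a full-length cDNA method for very small inputs.

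T cells recognise antigen through a receptor built from variable chains and CD3 chains, and the coreceptors CD4 and CD8 bring the kinase Lck to it. Lck and Zap70 then phosphorylate adaptors, and calcium and kinase signals reach the nucleus through NFAT and other factors. CD45, encoded by ptprc, is a phosphatase found on nearly all white blood cells and is needed for this cascade. The mpeg1.1 gene encodes perforin-2, a pore-forming protein of macrophages, and zebrafish mpeg1 reporters also mark some other cells. In epidermis the epithelial cells hold together through cadherins, desmosomes and claudins.

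The 7 libraries held 5837662 to 21343723 counts assigned to genes, with the fewest in MLC replicate 1, and between 8972 and 16921 genes with a count. An unnamed gene, ENSDARG00000080337, took 12.4% to 32.7% of the counts of the MLC libraries and 6.05% to 13.7% of those of the T cell libraries. Spearman correlations across genes lay between 0.662 and 0.796 among MLC libraries, between 0.707 and 0.759 among T cell libraries, and between 0.287 and 0.448 across the groups. Levels are given as CPM, each library's counts in tested genes scaled to a common total after TMM factors, which correct for a few genes taking much of a library. Of 35117 genes, 12003 had enough counts to be tested with edgeR's quasi-likelihood test, and a gene was called at a Benjamini-Hochberg adjusted p below 0.05 over these.

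The labels held for lck and mpeg1.1, the genes whose promoters drive the reporters of the 2 groups. The gene lck had 0.422, 0.490, 13.3 and 0 CPM in the 4 MLC libraries, against 691, 592 and 605 CPM in the 3 T cell libraries. Its log2 difference, MLCs minus T cells, was -7.43 ± 1.72 (SE) with an adjusted p of 0.0328 in edgeR's quasi-likelihood test. The value in MLC replicate 3 stood above the other MLC values, yet every MLC library lay far below every T cell library. Zap70, the kinase next to Lck in the cascade, had 0 in all 4 MLC libraries, against 423, 514 and 382 CPM in the 3 T cell libraries, so it was at least 6913-fold lower in MLCs against a floor of 3 counts over the group (adjusted p = 0.000472). Tnfrsf9b, a costimulatory receptor of the tumour necrosis factor receptor family, also had 0 counts in all 4 MLC libraries and 1369, 1247 and 1318 CPM in the T cell libraries (adjusted p = 0.000466). On the MLC side, mpeg1.1 had 909.6, 1744, 1482 and 1328 CPM in the 4 MLC libraries, against 4.29, 0 and 0 CPM in the 3 T cell libraries. Its log2 difference was 9.89 ± 2.13 with an adjusted p of 0.0239, and the trace in T cell replicate 1 did not bring the groups near each other. Zap70, tnfrsf9b, spint2, nipal4 and anxa5b were given in advance as markers of these groups, so their separation is no test of the labels. Spint2, nipal4 and anxa5b were read in every MLC library and had 0 counts in every T cell library. Spint2, a membrane-anchored inhibitor of serine proteases, had 989.8, 1768, 869 and 895 CPM in MLCs and was at least 22510-fold higher there (adjusted p = 0.000447). Nipal4, a magnesium transporter of the skin barrier whose human gene is mutated in ichthyosis, had 1059, 765, 711 and 821 CPM in MLCs (adjusted p = 0.000426). Anxa5b, a calcium-dependent phospholipid-binding annexin, had 485, 819, 573 and 522 CPM in MLCs (adjusted p = 0.000426). The remaining reporter genes were krt4, an epithelial keratin at 491, 543, 64.3 and 29.2 CPM in MLCs against 0.153, 0.230 and 0 CPM in T cells, and lyz, the neutrophil lysozyme, with 0, 0, 0 and 0.494 CPM in MLCs and 21.2, 0 and 0 CPM in T cells, too few counts to test. The call of lck was lost without MLC replicate 1 or 2 or without any 1 of the T cell replicates, and that of mpeg1.1 was lost without MLC replicate 2.

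Of the 12003 tested genes, 691 (5.76%) rose and 329 (2.74%) fell in MLCs relative to T cells, 8.5% in all. The counts of called list members below are to be read against these shares. Among the genes that rose, 272 had 0 counts in every T cell library, and among those that fell, 164 had 0 counts in every MLC library. Of all tested genes, 790 had 0 counts in every library of 1 group. Such genes passed the filter through the other group alone, so their direction was fixed in advance, also in the lists below. In bulk libraries, fewer cells of a type and less RNA per cell cannot be told apart. The groups did not overlap at 1018 of the 1020 called genes. Over all tested genes, every MLC library lay above every T cell library at 14.4% and below at 14%. The median log2 difference of all tested genes was -0.09, and 2411 genes had an unadjusted p below 0.05. The count of higher genes was 424 without MLC replicate 2, and the count of lower genes was 201 without T cell replicate 2 and 183 without T cell replicate 3. Without T cell replicate 1, 839 genes rose and 227 fell, which took the share of higher calls to 78.7%, against 67.7% with all 7 libraries. On the authors' TPM values, log2(TPM + 1) with limma, 973 genes rose and 1986 fell (32.9% higher), and the median of all genes moved to -0.79. No gene called here was called the opposite way under any alternative tried.

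**Figure D1:**
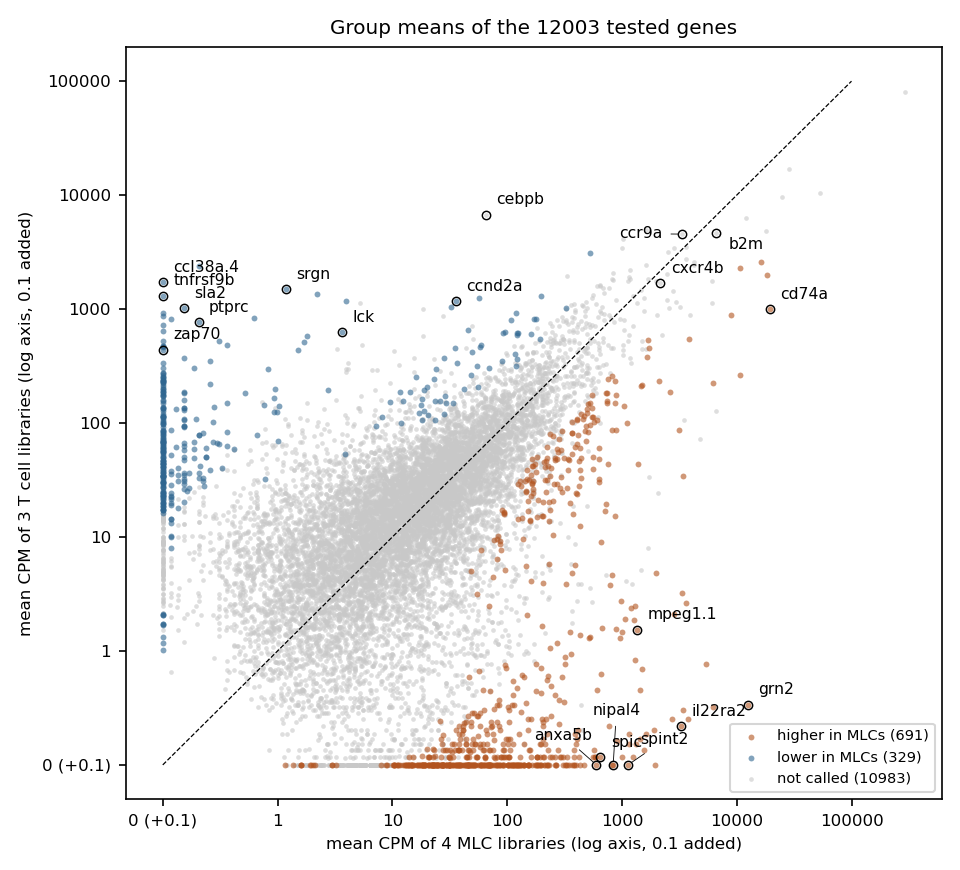
Mean CPM of each of the 12003 tested genes in the 4 MLC libraries (x axis) and the 3 T cell libraries (y axis), both on log axes with 0.1 added, so that 0 sits at the edge. The 691 genes higher in MLCs reach from the T cell zero line (spint2, nipal4, anxa5b) to genes read in both groups such as cd74a, 164 of the 329 lower genes lie on the MLC zero line (zap70, tnfrsf9b) and the others off it, and ccr9a, cxcr4b and b2m lie near the diagonal.

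The 12 largest fitted folds in each direction among genes of at least 50 CPM joined members of the lists with genes outside them. On the MLC side the genes outside the lists were s100u, cdh28, ano1, prom2 and rassf7b. Ano1, a calcium-activated chloride channel, had 310.2, 458, 390.0 and 363 CPM in MLCs and 0 counts in T cells, at least 7568-fold higher (adjusted p = 0.000426). S100u, another S100 gene, had 577, 449, 408 and 297 CPM in MLCs, and prom2, a prominin of membrane protrusions, had 221, 475, 383 and 314 CPM, both with 0 counts in T cells (adjusted p = 0.000447 and 0.000467). Rassf7b had 298, 403, 205 and 392 CPM in MLCs and 0 counts in T cells (adjusted p = 0.000467), and cdh28, a cadherin, had 361, 1771, 1433 and 1439 CPM in MLCs against 0.0511, 0 and 0 CPM in T cells (adjusted p = 0.000447). On the T cell side stood nab1a, a corepressor of Egr factors, with 0 counts in MLCs and 831, 935 and 995 CPM in T cells, at least 14470-fold lower in MLCs (adjusted p = 0.000467). Myca, a Myc proto-oncogene, had 577, 448 and 384 CPM in T cells, nlrc3 had 433, 460.3 and 493 CPM and mxd had 227, 249.9 and 289 CPM, all with 0 counts in MLCs (adjusted p = 0.000472, 0.000472 and 0.000592). The T cell libraries were close together for these genes, and the calls of all of them held without any 1 library.

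In the list of the T cell receptor complex and its coreceptors, all called genes were lower in MLCs. Of 11 tested members, 7 fell and 0 rose, and the median log2 difference was -10.7 (-9.33 with the members that had 0 MLC counts set at their bound), against -0.09 over all tested genes. The 7 were ptprc, cd8a, cd8b, cd4-1, cd28l, cd40lg and cd226, and none of them is a receptor or CD3 chain. The call of cd226 was lost without MLC replicate 2 or any 1 of the T cell replicates. Ptprc, which encodes CD45, had 0.422, 0, 0 and 0 CPM in the 4 MLC libraries, against 773, 778 and 757 CPM in the 3 T cell libraries. The T cell libraries were nearly level for this gene and the MLC libraries held almost none of it (log2 difference -13.66 ± 1.28, adjusted p = 0.000541). Both chains of the CD8 coreceptor followed, with cd8a at 0.211, 0, 0 and 0 CPM in MLCs against 277, 123 and 158 CPM in T cells and cd8b at 0.211, 0, 0 and 0 CPM in MLCs against 227, 217 and 105 CPM in T cells. Cd4-1, the CD4 coreceptor, had 0.211, 0, 0 and 0 CPM in MLCs against 167, 78.5 and 83.1 CPM in T cells, so genes of both coreceptors were read in every T cell library and the traces in MLCs were in replicate 1 alone. The adjusted p-values of cd8a, cd8b and cd4-1 were 0.000635, 0.00065 and 0.00146 in edgeR's quasi-likelihood test. The zeta chains of the CD3 complex gave no call, cd247l having 0 counts in MLCs and 7.57, 21.8 and 6.28 CPM in T cells (adjusted p = 0.0589) and cd247 too few counts to test. The costimulatory genes cd28l and cd40lg fell as well (adjusted p = 0.00649 and 0.00998). Among all named genes, trbc1, the constant part of a T cell receptor beta chain, had 0 in all 4 MLC libraries, against 334, 267 and 228 CPM in the 3 T cell libraries (adjusted p = 0.000592). The delta chain constant gene trdc, chosen after its values were seen, had 0 counts in MLCs and 18.7, 453 and 245 CPM in T cells; its T cell libraries spread more widely than those of trbc1 (adjusted p = 0.00801). With all 17 libraries of the series in the fit, 4 of the list members were called lower. The whole list summed to 0 to 13.5 CPM in the MLC libraries, highest in replicate 3, and to 1385 to 1781 CPM in the T cell libraries.

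In the list of the signalling chain below the receptor, 7 of 41 tested members rose and 11 fell, with a median of -2.27. The list also holds cd44a, a surface receptor gene, which is among the 7. Several adaptors and kinases known from T cells fell, while 23 of the 41 members were not called. Not among the calls was the T cell kinase gene itk, named after its values were seen (adjusted p = 0.0576 in edgeR's quasi-likelihood test). It had 5.69, 1.96, 13.4 and 0 CPM in MLCs against 201, 144 and 171 CPM in T cells. Sla2, an adaptor that tunes receptor signalling, had 0.211, 0, 0 and 0 CPM in the 4 MLC libraries, against 827, 1076 and 1161 CPM in the 3 T cell libraries (adjusted p = 0.000426). Themis, a thymocyte signalling protein, was at 0 counts in MLCs and at 406, 349 and 260.1 CPM in T cells, at least 5325-fold lower in MLCs (adjusted p = 0.000551). Grap2a, an adaptor that links Lat to Lcp2, had 0.211, 0, 0 and 0 CPM in MLCs against 131, 157 and 115 CPM in T cells (adjusted p = 0.000865). Lat itself and the transcription factor gene nfatc2b had 0 counts in all 4 MLC libraries, with 101, 72.5 and 37.8 CPM and 254, 172 and 132 CPM in T cells (adjusted p = 0.00494 and 0.000929). The members that rose were cd44a, pag1, vav2, skap2, ptpn22, plcg2 and wasa. Cd44a, a hyaluronan receptor, had 222, 316, 213 and 91.9 CPM in MLCs against 0.0511, 0 and 0 CPM in T cells (adjusted p = 0.000472). Pag1, a membrane adaptor that recruits the inhibitory kinase Csk, had 306, 1054, 578 and 690.2 CPM in MLCs against 1.58, 0 and 0 CPM in T cells (adjusted p = 0.0121). Vav2, a guanine nucleotide exchange factor, had 272, 186, 73.9 and 402 CPM in MLCs against 8.28, 2.47 and 6.24 CPM in T cells, a log2 difference of 5.36 ± 0.82 (adjusted p = 0.00463). Skap2, an adaptor of the Src kinase pathway, was read in both groups at 260.0, 726, 428 and 329 CPM in MLCs against 37.6, 39.9 and 20.3 CPM in T cells and was 13.4-fold higher in MLCs (adjusted p = 0.00415). The count of members that rose was 4 without T cell replicate 2 and 1 with all 17 libraries in the fit. The count of members that fell was 26 on the TPM scale and 5 with all 17 libraries.

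Of 28 tested transcription factors of T cells, 13 fell, 0 rose and 15 were not called. The log2 difference was above 0 for 7 members and below 0 for 21, with a median of -6.2. Irf4b, an interferon regulatory factor of activated lymphocytes, had 0 in all 4 MLC libraries, against 269.8, 179 and 272 CPM in the 3 T cell libraries (adjusted p = 0.000685). Ets1, a factor of the Ets family that lymphocytes use, was at 0 counts in MLCs and at 383, 154 and 201 CPM in T cells (adjusted p = 0.000929). Zbtb32 had 0.211, 0, 0 and 0 CPM in MLCs against 148, 157 and 168 CPM in T cells and tox2 had 0 counts against 89.6, 63.7 and 122 CPM (adjusted p = 0.000685 and 0.00263). None of these reached 1 CPM in any MLC library. Tcf7, a factor of naive and memory T cells, and foxp3a and foxp3b, relatives of the regulatory T cell gene FOXP3 of mammals, were also at 0 counts in MLCs, but their T cell libraries differed widely. Tcf7 had 496, 17 and 51.3 CPM in T cells, foxp3b had 255.9, 14.1 and 28.5 CPM and foxp3a had 74.1, 15.2 and 13.4 CPM, each highest in replicate 1 (adjusted p = 0.0144, 0.015 and 0.0248). These 3 genes were named after their values were seen. The call of foxp3b was lost without T cell replicate 1, and that of foxp3a without MLC replicate 2 or T cell replicate 1 or 3. With all 17 libraries in the fit, 5 members of the list were called lower. On the TPM scale 17 were called lower and 2 higher, and without T cell replicate 1, 10 lower and 1 higher.

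Of 17 tested effector genes of T and natural killer cells, 8 fell and 0 rose, with a median of -10 (-7.54 with bounds). The list held 37 genes, and 7 of the 17 tested had 0 counts in every library of 1 group. With all 17 libraries in the fit 3 were called lower, and DESeq2 called 12 lower and 2 higher. The calls of ifng1 and il17a/f1 among these 8 were lost in 6 of the 7 fits that left out 1 library. The chemokine gene ccl38.6 had 0, 0.0700, 0 and 0 CPM in the 4 MLC libraries, against 254, 1241 and 985 CPM in the 3 T cell libraries (adjusted p = 0.000426). Ccl38a.5 and ccl38a.4 of the same family were at 0 counts in MLCs, with 91.7, 1554 and 966 CPM and 373, 2775 and 1993 CPM in T cells (adjusted p = 0.00417 and 0.00166). T cell replicate 1 was the lowest of its group for these 3 genes, and since they are close relatives whose reads the authors' counting may have split, their separate levels are uncertain. Il10, an anti-inflammatory cytokine, had 0.211, 0, 0 and 0 CPM in MLCs against 65.1, 87.6 and 122 CPM in T cells (adjusted p = 0.002). Ifng1r, the zebrafish interferon gamma related gene, was at 0 counts in MLCs and at 40.7, 142 and 180.0 CPM in T cells (adjusted p = 0.00311). Srgn, which encodes the granule proteoglycan serglycin, had 0.211, 3.92, 0 and 0.165 CPM in MLCs against 1425, 1504 and 1577 CPM in T cells (adjusted p = 0.00597). Srgn was also listed with the neutrophil markers, and the T cell libraries averaged 1833 ± 179 TPM and the neutrophil libraries 4729.9 ± 1503 TPM of it (SD, n = 3 each). T cell replicate 1 held 154 CPM of the neutrophil peroxidase gene mpx and 21.2 CPM of lyz, and the other T cell libraries held 0 of both genes. The part of neutrophil RNA in the srgn result was not tested. Srgn kept its call in the fit without T cell replicate 1, and the other T cell libraries held 1504 and 1577 CPM of it.

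Cytokine receptor genes were called in both directions, and chemokine receptor genes mostly as lower in MLCs. Of 37 tested cytokine receptor genes, 6 rose (16.2%) and 7 fell (18.9%), with a median of -1.33. Of 13 tested genes of the chemokine receptor list, 1 rose (7.69%) and 5 fell (38.5%), with a median of -0.45. This list also holds the sphingosine 1-phosphate receptor gene s1pr5a, which is among the 5 that fell. Over all tested genes 5.76% rose and 2.74% fell, so the share of chemokine receptors that rose was near that of all genes. Il22ra2, which in mammals encodes a secreted binding protein for interleukin-22, had 957, 5882, 2755 and 3490.4 CPM in the 4 MLC libraries, against 0.358, 0 and 0 CPM in the 3 T cell libraries (adjusted p = 0.00137). In mean TPM this gene stood at 4098 ± 2107 in MLCs and at 21.1 ± 32.8 in cLCs (SD, n = 4 each), and at 0 TPM in keratinocytes and neutrophils. Crfb15, a class II cytokine receptor, had 359, 1436, 805 and 703 CPM in MLCs against 0.153, 10.5 and 2.94 CPM in T cells, a log2 difference of 7.51 ± 1.40 (adjusted p = 0.0126). Il4r.1, a receptor chain for interleukin-4, had 32.7, 67.6, 30.0 and 22.1 CPM in MLCs against 0.102, 0 and 0 CPM in T cells (adjusted p = 0.0112). Tnfrsf21, a death-domain receptor, was read at a lower level, with 36.7, 25, 12.1 and 32.8 CPM in MLCs and 0 counts in T cells (adjusted p = 0.0125). The receptors that fell included the growth-factor receptors of lymphocytes. Il7r had 0 counts in MLCs and 513, 197 and 200.1 CPM in T cells, and il2rb, the beta chain of the interleukin-2 receptor, had 0 counts and 188, 205 and 123 CPM (adjusted p = 0.000987 and 0.000929). Tnfrsf18, a costimulatory receptor, had 0.843, 0, 0 and 0 CPM in MLCs against 473, 516 and 589.9 CPM in T cells (adjusted p = 0.00197). Xcr1a.1, related to the XCL1 receptor of mammalian dendritic cells, was the chemokine receptor that rose, at 44.7, 2394, 935 and 631 CPM in MLCs against 0.0511, 0 and 0 CPM in T cells (adjusted p = 0.00197). Its MLC libraries spread widely, with replicate 1 far below the others. The receptors cxcr3.1 at 0.211, 0, 0 and 0 CPM in MLCs against 204, 109.6 and 78.7 CPM in T cells, s1pr5a at 0 counts against 63.2, 97.5 and 95.5 CPM, and ccr10 at 0 counts against 29.6, 162 and 121 CPM fell (adjusted p = 0.00104, 0.0028 and 0.00453). S1pr5a binds sphingosine 1-phosphate, and CCR10 is known from skin-homing lymphocytes of mammals. The call of crfb15 was lost without T cell replicate 3 and that of il4r.1 without MLC replicate 2, and the count of cytokine receptors that rose was 3 without either of these libraries. The other members of the chemokine receptor list that fell were cxcr4a, given below, and ccr7. The call of ccr7 was lost without any library but MLC replicate 2. On the TPM scale 17 cytokine receptors fell, and with all 17 libraries in the fit, 1 rose and 4 fell. In that fit 0 genes of the chemokine receptor list were called lower. The count of chemokine receptors that rose was 2 without T cell replicate 1 and on the TPM scale, and 3 with DESeq2.

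Epithelial junction genes gave the most calls on the MLC side of the 32 lists. Of 44 tested members, 27 rose and 0 fell, and the median was 10.1 (8.85 with bounds), against -0.09 over all tested genes. The list held 65 genes, the others having too few counts to test. Of the 44, 12 had 0 counts in every library of 1 group, so their direction was fixed. The 27 include genes that are not junction components, the protease inhibitor genes spint2 and spint1b and the protease gene st14a. Spint2 is also a marker given in advance. Cdh1, which encodes E-cadherin, had 791, 1649.6, 1341 and 868 CPM in the 4 MLC libraries, against 0.153, 0 and 0 CPM in the 3 T cell libraries (adjusted p = 0.000472). Ctnna1, the alpha-catenin that ties cadherins to actin, had 176, 259, 215 and 79.9 CPM in MLCs against 0.0511, 0 and 0 CPM in T cells (adjusted p = 0.000472). Dsg2.1, a desmosomal cadherin, was at 291, 194, 194 and 236 CPM in MLCs and at 0 counts in T cells (adjusted p = 0.000466). Every MLC library held all 3 of these genes, and no T cell library held more than 0.153 CPM of any. The tight junction claudins were among the most abundant junction genes. Cldnh had 4006, 8363, 5158 and 4270.3 CPM in MLCs against 1.99, 0 and 0 CPM in T cells and cldnb had 1925, 1739.8, 2429 and 1469 CPM in MLCs against 0.307, 0 and 0 CPM in T cells (adjusted p = 0.00684 and 0.000762). Epcam, an epithelial adhesion molecule, had 989, 4981, 2786 and 2235 CPM in MLCs against 0.460, 0 and 0 CPM in T cells, and oclnb, an occludin, had 171, 110.0, 149 and 195 CPM in MLCs and 0 counts in T cells (adjusted p = 0.00178 and 0.000472). Jupa, the plakoglobin shared by desmosomes and adherens junctions, had 863, 3069, 1703 and 2263 CPM in MLCs against 7.11, 0 and 6.94 CPM in T cells (adjusted p = 0.0146), and this call was lost without T cell replicate 3. Cldnh, cldnb, epcam, oclnb and jupa were named after their values were seen. With all 17 libraries in the fit, 10 members were called higher. On the TPM scale 29 members were called higher and 1 lower.

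Not all epithelial genes of MLCs stood at keratinocyte levels. The authors' TPM values are used for this, but they may not share a scale between groups. Between MLCs and T cells the median difference of all genes was -0.79 on log2(TPM + 1), against -0.09 in the main fit. In mean TPM, spint2 was 708 ± 168 in MLCs and 1092 ± 157 in keratinocytes, and cdh1 was 326 ± 109 in MLCs and 361 ± 72.9 in keratinocytes (SD, n = 4 and 3). Cldnb was 2279 ± 803 TPM in MLCs and 22738 ± 7511 TPM in keratinocytes, and krt5, a basal keratin, was 328 ± 422 TPM in MLCs and 8243 ± 7621 TPM in keratinocytes. Nipal4 lay the other way, at 369.6 ± 84.1 TPM in MLCs and 3.16 ± 5.48 TPM in keratinocytes, and cldnh was at 3449 ± 922 TPM in MLCs and listed at 0 in keratinocytes. These differences from keratinocytes are descriptions and were not tested.

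Keratins and barrier genes rose less evenly. Of 7 tested keratins out of 23 listed, 2 rose and 0 fell (median 7.87), and 4 rose without T cell replicate 2, 5 with DESeq2, 4 on the TPM scale and 1 with all 17 libraries in the fit. Krt4 had the levels given above (adjusted p = 0.00572), and krt5 had 1754, 292, 192 and 199.8 CPM in MLCs against 1.07, 0 and 0 CPM in T cells (adjusted p = 0.0154), with MLC replicate 1 far above the other MLC libraries. Krt8, a simple-epithelium keratin, had 2636, 3006, 890.0 and 1774 CPM in MLCs against 57.6, 0 and 15.6 CPM in T cells and missed the threshold (adjusted p = 0.0657). Of 14 tested genes of the cornified envelope and lipid barrier, 6 rose and 1 fell (median 4.32). Besides nipal4, the S100 calcium-binding gene s100v1 had 294, 408, 530.3 and 303 CPM in MLCs and 0 counts in T cells (adjusted p = 0.000447). Icn, which encodes the S100-family protein ictacalcin, was abundant in MLCs and present in T cells, at 8907, 7813, 4695 and 3576 CPM in MLCs against 109, 260.1 and 302 CPM in T cells, 27.9-fold higher in MLCs (adjusted p = 0.0025). Elovl4a, an elongase of very long fatty acids, fell, with 0 counts in MLCs and 31.3, 70.17 and 21.6 CPM in T cells (adjusted p = 0.0141). This call was lost without T cell replicate 2. Of 14 tested transcription factors of the ectoderm, 5 rose and 0 fell (median 2.1), with 10 differences above 0 and 4 below. Tfap2c had 227, 373, 104 and 226 CPM in MLCs and elf3 had 33.7, 326, 175 and 203 CPM, both with 0 counts in T cells (adjusted p = 0.000654 and 0.0021). Grhl2b, a grainyhead factor that regulates epithelial junction genes in mammals, was low at 20.5, 35.9, 9.68 and 77.7 CPM in MLCs and also at 0 counts in T cells (adjusted p = 0.0119). With DESeq2, 9 factors of this list were called higher and 2 lower, and on the TPM scale 5 higher and 2 lower. With all 17 libraries in the edgeR fit, 2 were called higher and 0 lower. The basal keratinocyte factor gene tp63 had 9.7, 0, 0.0625 and 0.0823 CPM in the MLC libraries and was too low to test.

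Keratinocyte markers moved with the epithelial genes. Of 10 tested keratinocyte markers, 4 rose (krt4, krt5, evpla and agr1) and 0 fell. Evpla, an envoplakin, had 209.8, 59.7, 84.7 and 2.96 CPM and agr1 51.9, 40.1, 8.81 and 30.0 CPM in MLCs, both with 0 counts in T cells (adjusted p = 0.0142 and 0.0112). The 27 markers summed to 402 to 3555 CPM in the MLC libraries, highest in replicate 1, and to 16.8 to 116 CPM in the T cell libraries. The part of keratinocyte RNA in the epithelial calls was not tested. Krt91 and krt97, keratins with 2381 ± 2094 and 3034 ± 4067 TPM in the keratinocyte libraries, were at 460.3, 9.17, 0 and 86.4 CPM and 155, 0.980, 0 and 11.8 CPM in the MLC libraries. MLC replicate 3 held 0 of both but 192 CPM of krt5, 64.3 CPM of krt4 and 84.7 CPM of evpla, and the 27 markers summed to 408 CPM there, in a library with 1341 CPM of cdh1 and 5158 CPM of cldnh. Without MLC replicate 1, 24 genes of the epithelial junction list were called higher.

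**Figure D2:**
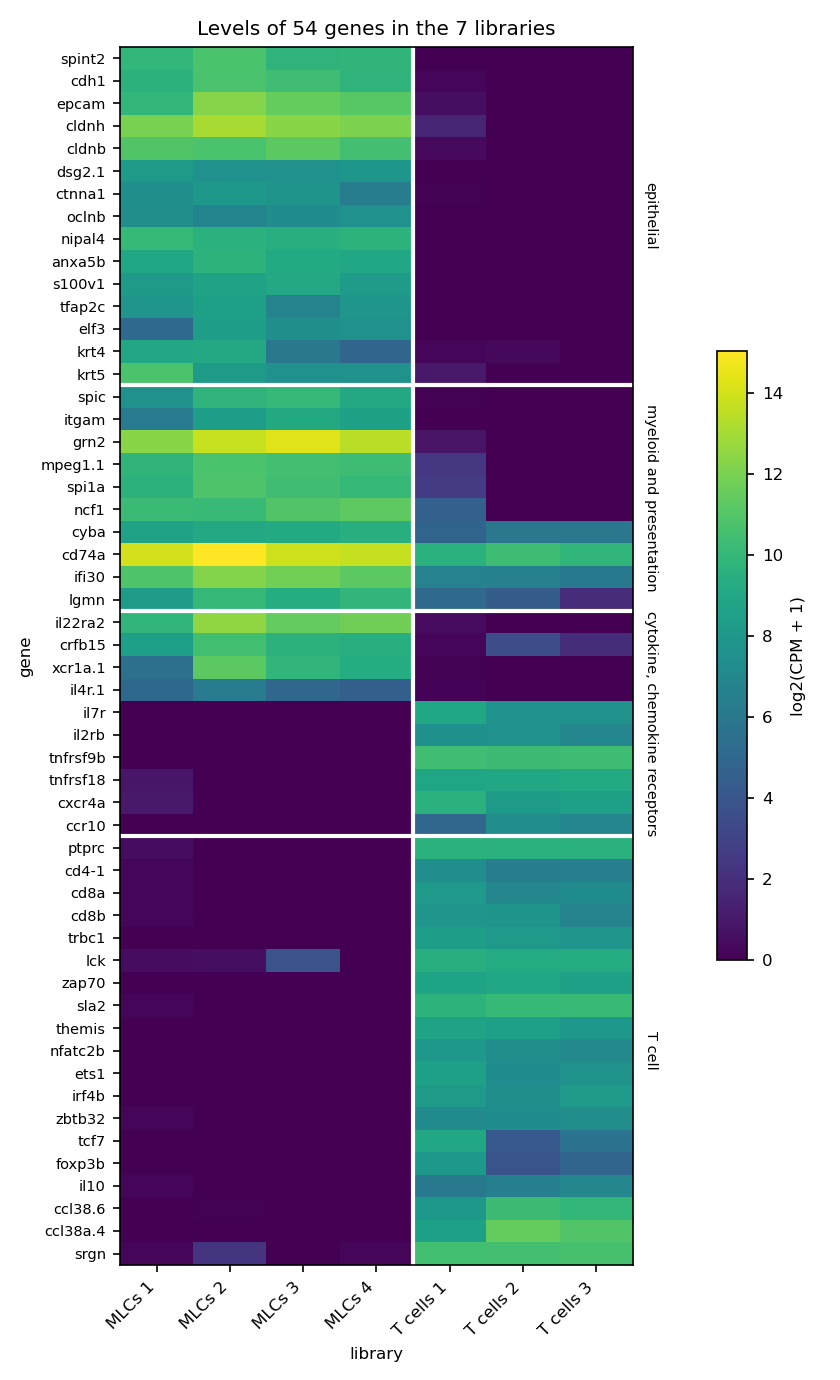
Level of 54 genes as log2(CPM + 1) in the 4 MLC libraries (left columns) and the 3 T cell libraries (right columns), grouped by role. Epithelial and myeloid genes are bright on the left and T cell genes on the right; cd74a, ifi30, cyba and lgmn are read in both, and lck in MLC replicate 3 and ncf1 in T cell replicate 1 show as faint cells.

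Genes of myeloid cells rose in part. Of 28 tested members of the core list, 11 rose and 1, ptprc, fell (median 3.08). The log2 difference was above 0 for 23 members and below 0 for 5. The latter included cebpb (-6.70) and fcer1g (-3.94), which were not called and whose levels are given below. Spic, an Ets factor of specialised macrophages in mammals, had 212, 857, 1004 and 529 CPM in the 4 MLC libraries, against 0.0511, 0 and 0 CPM in the 3 T cell libraries (adjusted p = 0.000467). Itgam, an integrin alpha chain of myeloid cells, had 69.6, 335, 547 and 388 CPM in MLCs and 0 counts in T cells (adjusted p = 0.00131). Grn2, a granulin gene, was at 5286, 13744, 19618 and 11447 CPM in MLCs against 0.716, 0 and 0 CPM in T cells (adjusted p = 0.0019). By mean TPM grn2 ranked 2 among all higher genes with a symbol, at 21319.8 ± 12432 TPM in MLCs and 0.682 ± 1.18 TPM in T cells (SD, n = 4 and 3). Grna, a progranulin gene, was read in both groups at 493, 1044, 699 and 768 CPM in MLCs against 36, 47.6 and 47.2 CPM in T cells and was 17.2-fold higher in MLCs (adjusted p = 0.000978). Spi1a, a paralog of the myeloid factor PU.1, had 808, 1864, 1350.3 and 1038 CPM in MLCs against 5.32, 0 and 0 CPM in T cells (adjusted p = 0.0314), and its call was lost without any 1 of the MLC libraries or without T cell replicate 2. Some genes known from conventional macrophages were near 0 in MLCs. Csf1ra, the receptor for macrophage colony-stimulating factor, had 0 counts in all 4 libraries. Irf8 had 0.422, 0, 0 and 0 CPM, and mfap4 had 0.843, 0, 0 and 0 CPM. All 3 were too low to test, and T cell replicate 1 held 0.767, 0.0511 and 3.07 CPM of them. Of 4 tested conventional macrophage markers, 2 rose, grna and si:ch211-212k18.7, a gene listed as cd68 in the gene name table, which had 702, 1335, 681 and 821 CPM in MLCs against 219.9, 157 and 155 CPM in T cells (adjusted p = 0.0124). The call of si:ch211-212k18.7 was lost without T cell replicate 2 or 3. The log2 differences of all 4 tested markers were above 0, with a median of 2.89. All 20 markers of that list summed to 1270 to 2432 CPM in the MLC libraries and to 217 to 308 CPM in the T cell libraries. The count of core genes that rose was 7 without T cell replicate 2, 16 without T cell replicate 1, 14 with DESeq2, 15 on the TPM scale and 4 with all 17 libraries in the fit. The count that fell was 4 with DESeq2, 3 on the TPM scale, and 2 with all 17 libraries or without MLC replicate 1, 3 or 4.

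Among the 6 tested genes of the phagocyte oxidase, which makes superoxide in phagocytes, 2 rose and 0 fell (median 3.53). Cyba, the p22 subunit of the membrane complex, had 402, 538, 585 and 722 CPM in MLCs against 28.1, 60.3 and 61.6 CPM in T cells and was 11.2-fold higher in MLCs (adjusted p = 0.00289). Rac2, a small GTPase that activates the enzyme, had 825, 2469.6, 1689.6 and 1883 CPM in MLCs against 390.4, 453 and 529.9 CPM in T cells, 3.75-fold higher (adjusted p = 0.0414), a call that was lost without any 1 of MLC replicates 2, 3 and 4 or of the T cell replicates. The list counted 1 higher gene without any 1 of these libraries except T cell replicate 1, 3 without that one, 4 on the TPM scale and 0 with all 17 libraries in the fit. Ncf1, a cytosolic subunit named after its values were seen, had 1180.2, 1108, 1924 and 2514 CPM in MLCs against 23.8, 0 and 0 CPM in T cells. Its groups did not overlap, but it missed the threshold with an adjusted p of 0.0897 in edgeR's quasi-likelihood test. Without T cell replicate 1 ncf1 passed (adjusted p = 0.000651), and over all alternatives its adjusted p ranged from 0.00054 to 0.152.

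Genes of MHC class II presentation, which shows peptides to CD4 T cells, rose in part in MLCs, and some were read in both groups. Of 16 tested members, 4 rose and 0 fell (median 2.43). Cd74a, the invariant chain that guides class II molecules to endosomes, had 15954, 33102, 15735 and 13480.3 CPM in the 4 MLC libraries, against 770.4, 1283 and 936 CPM in the 3 T cell libraries. It was 19.6-fold higher in MLCs (log2 difference 4.30 ± 0.60, adjusted p = 0.00308), and the 2 groups were well separated although both held it in every library. Its paralog cd74b had 2926, 17532, 7942 and 7415 CPM in MLCs against 603, 1099.7 and 948 CPM in T cells (adjusted p = 0.0205), a call that was lost without any 1 of the T cell libraries. Ifi30, a lysosomal thiol reductase that unfolds antigens, had 1879.8, 4728, 3555 and 2444 CPM in MLCs against 98.1, 93.7 and 66.4 CPM in T cells, 36.6-fold higher (adjusted p = 0.000828). The cathepsin ctss2.2 rose too, at 77.6, 130.2, 31 and 36.1 CPM in MLCs against 3.07, 3.22 and 0.923 CPM in T cells (adjusted p = 0.0174), and its call was lost without MLC replicate 2 or T cell replicate 2 or 3. A class II chain, mhc2dab, was split within the MLC group, with 0.422, 0.490, 4640.0 and 4226 CPM, so replicates 1 and 2 held almost none of it. The T cell libraries held 141, 931 and 689 CPM, and since MHC genes have close copies, its level is uncertain. Another class II gene, with the symbol mhc2b (ENSDARG00000104635), was read in a single T cell library. It had 1387, 18285, 3968 and 2829 CPM in MLCs against 384, 0 and 0 CPM in T cells (adjusted p = 0.334). A second gene with the symbol mhc2b (ENSDARG00000104730), outside the list, was called higher in MLCs. It had 85.6, 10.4, 182 and 113 CPM in MLCs against 0.204, 0 and 0 CPM in T cells (adjusted p = 0.00933). Both mhc2b genes were named after their values were seen, and their levels are uncertain for the same reason. The class II list counted 2 higher genes without T cell replicate 2 or 3 and 1 with all 17 libraries in the fit. On the TPM scale 7 of its genes were called higher and 1 lower. Genes of MHC class I processing held few calls: of 26 tested members 1 rose, mhc1uba, and 0 fell, a share of 3.85% against 5.76% of all tested genes, with a median of -0.18. Mhc1uba was low, at 4.01, 35.7, 58.9 and 88.9 CPM in MLCs against 0.511, 0.862 and 0.0879 CPM in T cells (adjusted p = 0.0329), and lost its call without any 1 of MLC replicates 2, 3 and 4 or of the T cell replicates. Without MLC replicate 1, 2 genes of this list were called higher, and on the TPM scale 1 was higher and 3 were lower.

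Of 35 tested endocytosis and lysosome genes, 9 rose and 0 fell (median 1.95). Cd9b, a tetraspanin of membrane platforms, had 700.5, 2029, 1500.5 and 1095 CPM in MLCs against 0.153, 0 and 0 CPM in T cells (adjusted p = 0.000496). Lgmn, an endosomal protease, had 320.1, 1007, 616 and 950.1 CPM in MLCs against 35.1, 20.7 and 2.77 CPM in T cells and ctsa, the protective protein cathepsin A, had 161, 166, 268 and 224 CPM in MLCs against 31.8, 20.5 and 8.53 CPM in T cells (adjusted p = 0.0114 and 0.00981). Rab32a, a GTPase of lysosome-related organelles, had 58.4, 85.5, 74.8 and 124 CPM in MLCs against 11, 8.39 and 7.78 CPM in T cells (adjusted p = 0.0127). The call of lgmn was lost without T cell replicate 2 and that of rab32a without T cell replicate 2 or 3. The count of genes that rose was 4 without MLC replicate 2, 5 without MLC replicate 3, 4 without T cell replicate 2 or 3, and 2 with all 17 libraries in the fit. On the TPM scale 7 genes of this list were called higher and 2 lower.

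Of 30 tested actin regulators, 13 rose, 1 fell and 16 were not called (median 1.5). Fybb, an adaptor that links receptors to actin, had 803, 475, 536 and 1055 CPM in MLCs against 10.4, 23.3 and 17.1 CPM in T cells, 42.4-fold higher in MLCs (adjusted p = 0.000828). The actin-severing gelsolins gsna and gsnb differed in reach: gsna was read in both groups at 333, 655, 619 and 923 CPM in MLCs against 60.7, 56.9 and 65 CPM in T cells, and gsnb at 559, 1902, 1404 and 1365 CPM in MLCs against 2.198, 0 and 0 CPM in T cells (adjusted p = 0.00315 and 0.0131). Arpc5b, a subunit of the branching complex Arp2/3, had 304, 472, 388 and 518 CPM in MLCs against 51.1, 11.4 and 20.8 CPM in T cells (adjusted p = 0.00615). Fscn1a, the actin-bundling fascin, was the member that fell, at 0, 0.560, 0 and 0 CPM in MLCs against 28.9, 24.5 and 98.6 CPM in T cells (adjusted p = 0.0329), and its call was lost without MLC replicate 1 or 3 or T cell replicate 2 or 3. The count of members that rose was between 5 and 8 without MLC replicate 2, 3 or 4 or any 1 of the T cell replicates, 8 on the TPM scale and 2 with all 17 libraries. On the TPM scale 3 members were called lower. Coro1a, the actin-binding coronin of white blood cells, was not among the calls, at 689, 1736, 1221 and 1313 CPM in MLCs against 1804, 957 and 1168 CPM in T cells. Of 6 tested annexins, 3 rose and 0 fell (median 2.92). Besides anxa5b, anxa11a had 396, 626, 457 and 492 CPM in MLCs against 94.2, 106 and 166 CPM in T cells and anxa3b had 206, 159, 822 and 1057 CPM in MLCs against 53.3, 46.9 and 18.1 CPM in T cells (adjusted p = 0.0175 and 0.0286). The call of anxa11a was lost without T cell replicate 2 and that of anxa3b without MLC replicate 3 or 4 or any 1 of the T cell replicates. The annexin list counted 1 higher gene without T cell replicate 2 and 1 with all 17 libraries in the fit. Of 9 tested integrins, itgam rose and itgb7, a beta chain of lymphocyte homing receptors, fell, at 0, 3.29, 0 and 0 CPM in MLCs against 147, 203 and 151 CPM in T cells (adjusted p = 0.0411). The call of itgb7 was lost without any library but MLC replicate 2. Without T cell replicate 1, 4 integrins were called higher and without MLC replicate 1, 2, while DESeq2 called 3 higher and 2 lower, limma on the TPM scale 2 higher and 3 lower, and the fit of all 17 libraries 0.

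Of 31 tested cell cycle genes, 1 rose and 2 fell (3.23% and 6.45%, median -2.11), and of 37 immediate early and stress genes, 1 rose and 2 fell (2.7% and 5.41%, median -0.11), against 5.76% and 2.74% of all tested genes. DESeq2 and limma on the TPM scale each called 6 cell cycle genes lower, DESeq2 called 2 higher, limma called 8 stress genes lower, and with all 17 libraries in the fit 0 genes of either list were called. The stress list counted 0 to 3 lower genes and the cell cycle list 1 or 2 when 1 library was left out. Of 44 oxidative phosphorylation genes, 0 were called in edgeR's quasi-likelihood test (median 0.46; 3 had an unadjusted p below 0.05, DESeq2 called 0 and limma on the TPM scale 1). Ccnd2a, a D-type cyclin, had 29.1, 36.7, 50.8 and 26 CPM in the 4 MLC libraries, against 642, 1593 and 1300 CPM in the 3 T cell libraries, 33-fold lower in MLCs (adjusted p = 0.000653). Dusp5 and dusp2, phosphatases that switch off MAP kinases, moved in opposite directions. Dusp5 had 1521, 3331, 2901 and 2653 CPM in MLCs against 235, 184 and 145 CPM in T cells, 13.8-fold higher (adjusted p = 0.00192), and dusp2 had 119.6, 213, 309.9 and 149.8 CPM in MLCs against 639, 1526 and 1710.4 CPM in T cells, 6.52-fold lower (adjusted p = 0.0132). Jun, an immediate early transcription factor, had 157, 207, 281 and 66 CPM in MLCs against 642, 871 and 947 CPM in T cells and fell (adjusted p = 0.0328). In the cell cycle list tuba8l4, a tubulin, rose and mcm2, a replication helicase subunit, fell, at 876, 2529, 1238 and 1186 CPM in MLCs against 365, 114 and 150.2 CPM in T cells and at 0, 1.19, 0 and 0.0823 CPM in MLCs against 5.78, 98.3 and 74.4 CPM in T cells (adjusted p = 0.0259 and 0.0497). The call of dusp2 was lost without T cell replicate 3 and that of tuba8l4 without MLC replicate 2 or T cell replicate 2 or 3. The call of jun was lost without MLC replicate 1, 2 or 3 or T cell replicate 2 or 3, and that of mcm2 without MLC replicate 1, 3 or 4 or T cell replicate 2 or 3. Heat-shock genes stood apart in 1 library: hsp70.1, hsp70.2 and hsp70.3 had 127, 0.210, 0 and 0.165 CPM, 213, 0.0700, 0 and 0 CPM and 209.8, 0.210, 0 and 0 CPM in the MLC libraries and at most 9.83 CPM in any T cell library, with separate levels uncertain since these copies are alike.

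**Figure D3:**
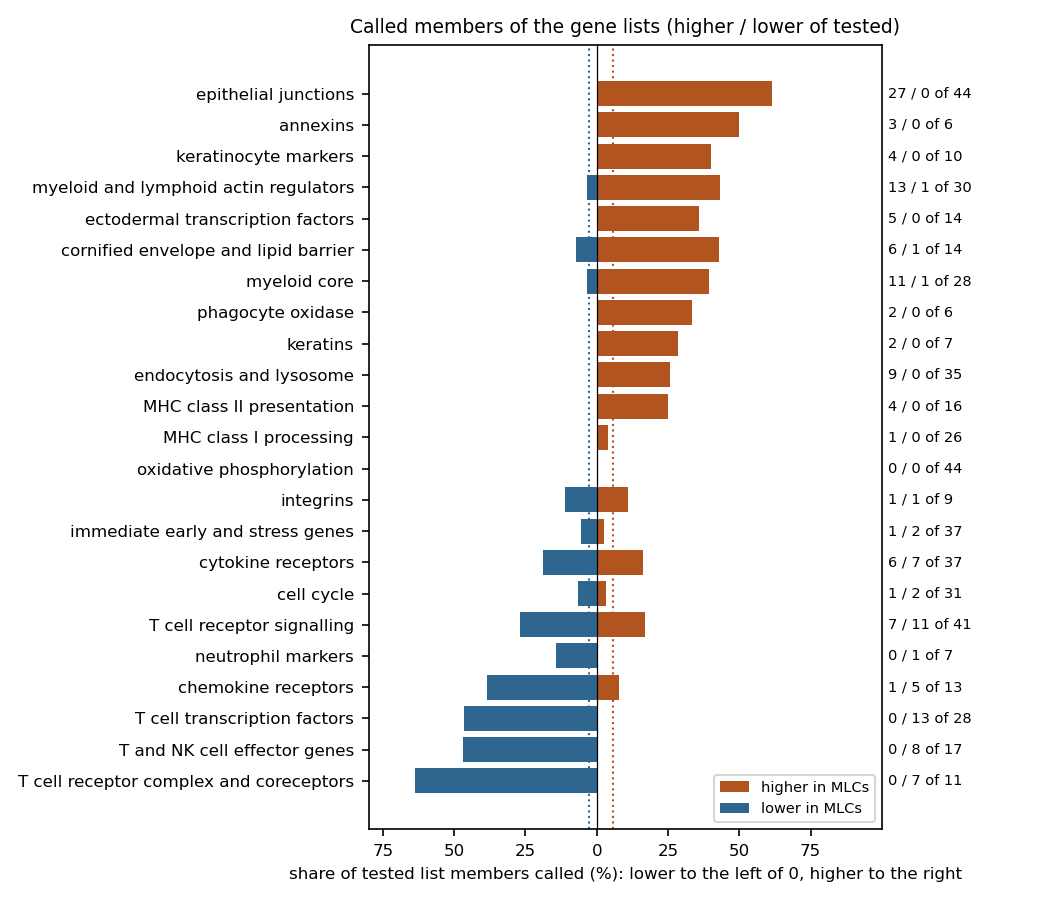
Share of the tested members of 23 gene lists that were called higher in MLCs (right of 0) or lower in MLCs (left of 0), with the counts beside each bar and dotted lines at the shares of all tested genes (5.76% and 2.74%). Epithelial junctions (27 of 44 higher) and the list of the T cell receptor complex and coreceptors (7 of 11 lower) lie at the ends, and oxidative phosphorylation shows no bar.

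The 9 pairs of related genes below were chosen after their values were seen and are given as a description. In 2 of them, vav2 with vav3b and ifngr1 with ifngr1l, both genes were called and in opposite directions. The chemokine receptor cxcr4b overlapped between the groups, at 2362, 1431, 1760.2 and 3101 CPM in MLCs against 2209, 1367 and 1463 CPM in T cells, with a 95% interval of the log2 difference of -0.61 to 1.34. Its paralog cxcr4a was at 1.05, 0, 0 and 0 CPM in MLCs against 779, 292 and 378 CPM in T cells (adjusted p = 0.00377), so the T cell libraries held both receptors and the MLC libraries held one. Vav3b mirrored vav2, with 0 counts in MLCs and 29.9, 24 and 68.9 CPM in T cells (adjusted p = 0.0138), and its call was lost without T cell replicate 3. Of the interferon gamma receptor chains, ifngr1 had 135, 126, 61.1 and 18.6 CPM in MLCs against 0.818, 0 and 0 CPM in T cells and ifngr1l had 23.2, 8.75, 33.3 and 9.96 CPM in MLCs against 319, 155 and 107 CPM in T cells (adjusted p = 0.0344 and 0.0167). The call of ifngr1 was lost without MLC replicate 1, 2 or 3 or T cell replicate 2 or 3, and that of ifngr1l without T cell replicate 1. Phospholipase C gamma 2, plcg2, had 185, 301, 341 and 254 CPM in MLCs against 57.6, 53.7 and 66.8 CPM in T cells (adjusted p = 0.0132) and plcg1 had 69.4, 25.5, 5.37 and 0 CPM in MLCs against 246, 135 and 75.9 CPM in T cells (adjusted p = 0.43). Of the WASP genes, which start actin branching, wasa had 365, 296, 413 and 403 CPM in MLCs against 68.3, 124 and 114 CPM in T cells (adjusted p = 0.0243) and wasb had 78.9, 76.6, 14.1 and 30.0 CPM in MLCs against 403, 113 and 208 CPM in T cells (adjusted p = 0.0896). The calls of plcg2 and wasa were lost without T cell replicate 2 or 3, and that of wasa also without T cell replicate 1. The Fc receptor signalling chains fcer1gl, at 146, 119, 194 and 344 CPM in MLCs against 13.2, 6.95 and 0 CPM in T cells, and fcer1g, at 12.9, 4.48, 7.18 and 0.247 CPM in MLCs against 168, 45.1 and 70.9 CPM in T cells, did not overlap between groups and ran in opposite directions, but neither passed the test (adjusted p = 0.0951 and 0.0684). Spint1b had 33.9, 33.9, 60.3 and 28.4 CPM in MLCs and 0 counts in T cells (adjusted p = 0.00506), whereas spint1a was read in both groups at 92.1, 277, 208 and 126 CPM in MLCs against 484, 496 and 537 CPM in T cells and was not called (adjusted p = 0.0753). For the Grap2 and Skap adaptors, grap2b and skap1 were read in all 7 libraries, at 96.6, 206, 91.8 and 142 CPM in MLCs against 158, 91.1 and 99.3 CPM in T cells and at 26.1, 24, 39.6 and 27.5 CPM in MLCs against 66.8, 46.9 and 58.4 CPM in T cells, whereas grap2a was almost absent from MLCs and skap2 was higher there.

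**Figure D4:**
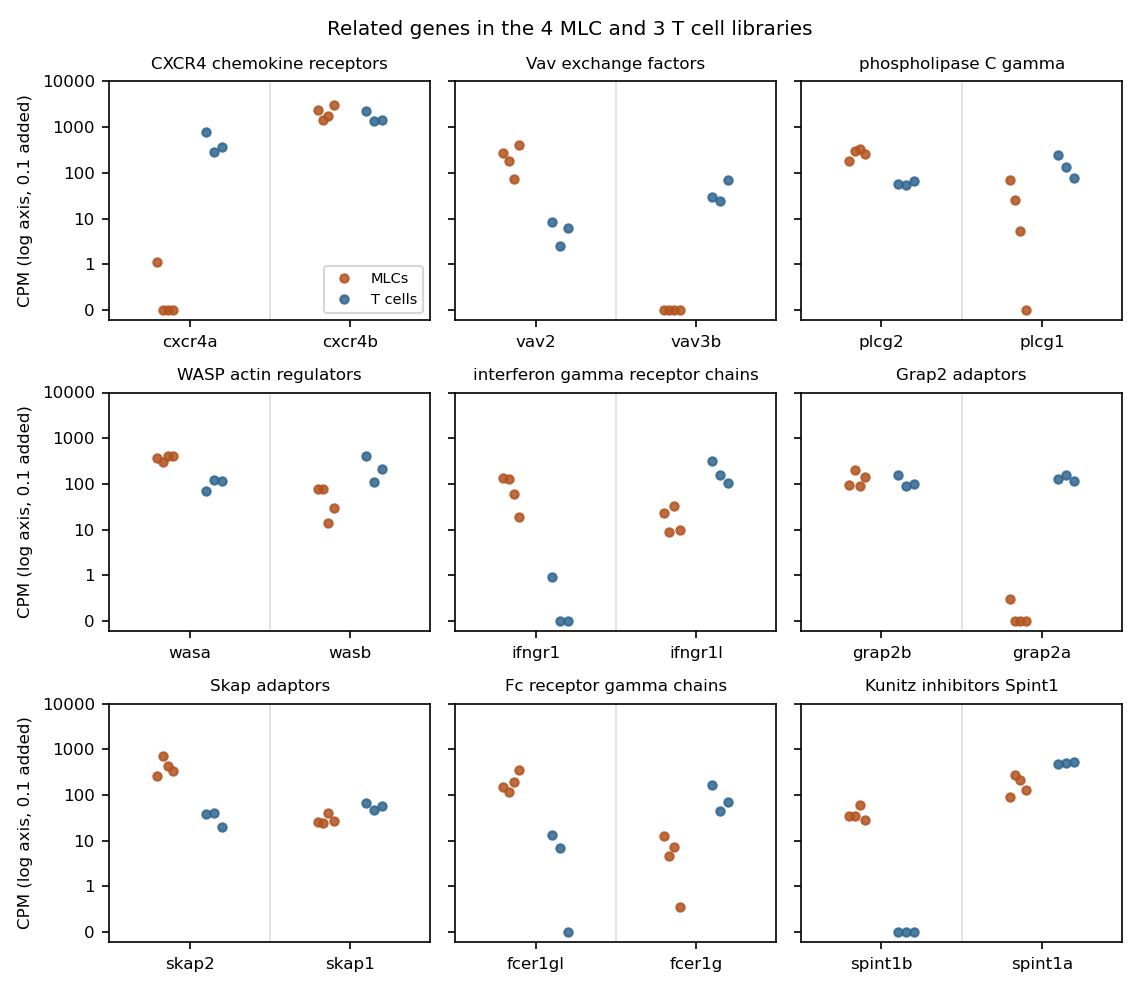
CPM of both genes of 9 related pairs in each MLC library and each T cell library (points, log axis with 0.1 added; MLCs left of T cells within each gene). In the CXCR4 panel cxcr4a is at or near 0 in MLCs while cxcr4b lies between 1367 and 3101 CPM in all 7 libraries.

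Many genes were read strongly in both groups. At least 100 CPM was reached in all 7 libraries by 364 tested genes, of which 25 rose, 7 fell and 332 were not called. For 207 of the uncalled genes with a symbol, the 95% interval of the difference lay within 4-fold in either direction. Ccr9a, the receptor for the chemokine CCL25 known from gut and thymus T cells in mammals, had 2942, 4086, 2440.3 and 3844 CPM in the 4 MLC libraries, against 8101, 2951 and 2601 CPM in the 3 T cell libraries. The interval of its log2 difference was -1.62 to 0.72, and T cell replicate 1 alone stood above the MLC range. B2m, the light chain of MHC class I, had 3197, 8201, 7707 and 7392 CPM in MLCs against 5381, 4329 and 4316 CPM in T cells (interval -0.56 to 1.56). Ikzf1, the lymphoid and myeloid factor Ikaros, had 85.4, 139.5, 191 and 134 CPM in MLCs against 142, 143 and 104 CPM in T cells (interval -0.88 to 1.04). Its level in MLC replicate 1 leaves it outside the 364 genes. The actin bundler lcp1 of white blood cells had 971, 4386, 2613 and 2352 CPM in MLCs against 1135, 913 and 1003 CPM in T cells and was not called (adjusted p = 0.188). The interval of its log2 difference was 0.13 to 2.56, so it was not among the 207 genes. These genes, read in both groups, stand beside the near absence of ptprc in MLCs.

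The called genes differed in where else they were read. Of the 691 genes higher in MLCs, 42.8% had a mean of at least 10 TPM in cLCs, 47.3% in keratinocytes and 28.7% in neutrophils, against 39.6%, 35.3% and 38.1% of all tested genes. Of the 329 genes lower in MLCs, 33.7% reached that level in cLCs, 13.7% in keratinocytes and 35% in neutrophils. None of these 3 groups reached it for 31.8% of the higher and 50.8% of the lower genes, against 40.4% of all tested genes. Il22ra2, xcr1a.1 and nipal4 show the higher genes with little elsewhere: xcr1a.1 averaged 1017 ± 895 TPM in MLCs, 11.5 ± 10.9 in cLCs and 0 TPM in keratinocytes and neutrophils (SD, n = 4 each for MLCs and cLCs). Some genes on the T cell side were shared with cLCs, which come from the MLC line. Cd4-1 averaged 121 ± 47.4 TPM in T cells and 453 ± 316 TPM in cLCs, and ptprc 429 ± 24.1 TPM in T cells and 178 ± 72 TPM in cLCs (SD, n = 3 and 4). For cd8a the means were 330 ± 123 TPM in T cells and 464 ± 278 TPM in cLCs. Those of cd8b were 303 ± 108 TPM in T cells and 37.5 ± 25.4 TPM in cLCs. Zap70, themis and irf4b were listed at 0 in cLCs. These shares were not tested.

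**Figure D5:**
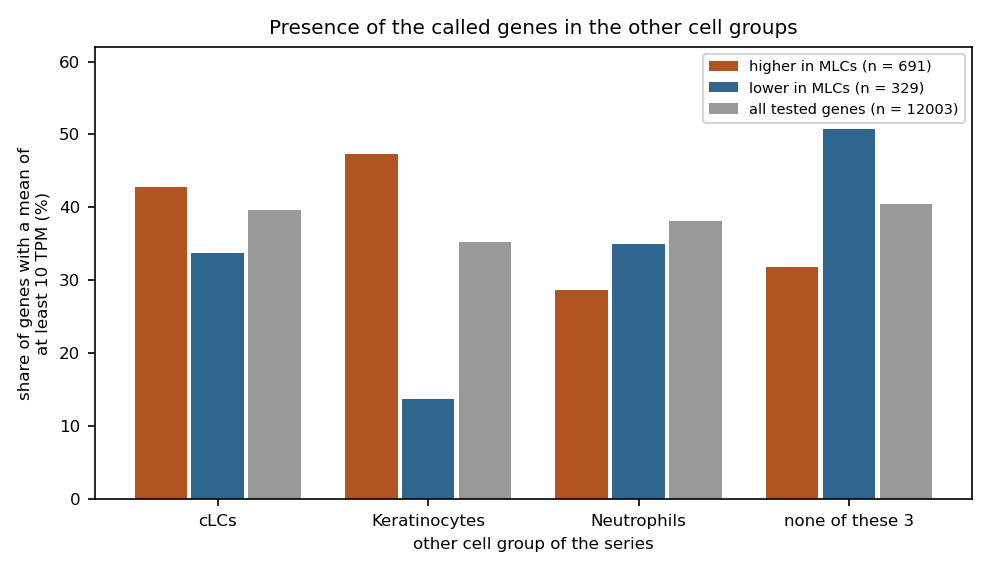
Share of genes with a mean of at least 10 TPM in cLCs, keratinocytes, neutrophils or none of these, for the 691 genes higher in MLCs, the 329 genes lower in MLCs and all 12003 tested genes (bars, from 0). Keratinocytes show the widest gap, 47.3% of the higher and 13.7% of the lower genes.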

How the data were processed

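RNA from cells picked from adult zebrafish epidermis was amplified by SMART-seq2 and sequenced, and the 4 MLC and 3 T cell libraries were analysed here. The authors aligned reads with STAR and made the deposited count table with featureCounts on danRer10, per the submitters' processing notes. Versions, annotation release, strand setting and the handling of reads with several matches are likewise not given in sources used here. Without a stated strand setting, overlapping and antisense genes cannot be told apart. The deposited TPM table was made by the authors in a way not given in the sources used here. Both tables held 35572 lines, of which 455 repeated an identifier with identical values and were dropped.

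Counts were tested with edgeR 4.0.16 (R 4.3.3): filterByExpr, TMM factors, a quasi-likelihood fit with group as the only term on the 7 libraries, and Benjamini-Hochberg adjustment at 0.05. No covariate was used. Intervals are 95%. Library totals were 5837662 to 21343723 counts, and the coefficient of biological variation was 1.43, with 5 residual degrees of freedom. On data simulated for this comparison over 12003 genes, edgeR recovered 0%, 42%, 68% and 86% of genes changed 4-, 16-, 64- and 256-fold, and 2 of its 100 calls were unchanged genes. DESeq2 1.42.0 recovered 10%, 70%, 90% and 98% but made 226 false calls among 360. The simulated counts were drawn with edgeR's own estimates of the spread, which may favour edgeR. No changed gene was set to be absent from a group, unlike many called genes. These rates therefore need not hold for the real libraries. Alternatives used DESeq2, limma 3.58.1 on log2(TPM + 1) and log2(TPM + 0.1), other filters and scalings, all 17 libraries, a replicate block, and each library left out.

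The groups and the 32 gene lists were chosen with earlier results of these data known, and 810 of 899 list symbols matched a gene. Genes were named by rule: per direction the 12 called genes with the largest fold, at least 50 CPM in the higher group and no overlap; up to 4 called members per list and direction with the smallest adjusted p; the 4 reporter genes; and the 5 given markers. One gene that the rule names is not reported here. Other genes are named after their values were seen, including lat, nfatc2b, cd28l, cd40lg, cd247l, krt8, spi1a, b2m, ikzf1, lcp1, coro1a and ccr9a. No sequences or coordinates are given, since no genome of the files' build was used here.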

Additional observations from a re-analysis of the deposited data

Results flagged for a closer look

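In the MLC group, 114 genes chosen for naming, with a mean of at least 1 CPM were examined for a library far from the other 3 by Dixon's 95% criterion. It marked 14 genes. For genes picked without regard to their values, and with normally distributed values, chance marks about 1 gene in 20. The criterion was applied to CPM without a log, and such values need not be normally distributed. Some of the 114 were named after their values were seen, among them the hsp70 genes, krt97, cebpb and ptgs2b. The count of marked genes therefore cannot be set against that rate. The 3 T cell libraries are too few for the criterion.

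MLC replicate 1 was the far library for 7 genes. The heat-shock genes hsp70.1, hsp70.2 and hsp70.3 had 127 CPM, 213 CPM and 209.8 CPM there and at most 0.210 CPM in the other MLC libraries. The keratins krt5 and krt97 had 1754 CPM and 155 CPM there, against at most 292 CPM and 11.8 CPM in the others. The transcription factor gene cebpb had 233 CPM there and at most 17.6 CPM in the others. B2m was lowest there, at 3197 CPM, with the next library at 7392 CPM. This library had the fewest counts of the 7, 5837662.

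MLC replicate 2 was the far library for 6 genes. Cd74a reached 33102 CPM there, spint2 1768 CPM, thy1 7764 CPM, ptgs2b 4170 CPM and the ferritin gene fth1a 19370 CPM. The next highest MLC values were 15954, 989.8, 2585, 711 and 8536 CPM in that order of genes. Srgn had 3.92 CPM there and at most 0.211 CPM in the other MLC libraries, far below the T cell libraries.

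MLC replicate 3 held 13.3 CPM of lck, and the other MLC libraries at most 0.490 CPM. Each of these values was left in the fit.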

How the results depend on the processing

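The direction of the called genes was stable and their number was not. With 691 higher and 329 lower genes in the 7-library edgeR fit, RLE scaling gave 737 and 344, no count filter 900 and 436, a filter at 10 CPM in 3 libraries 695 and 344, and a test against a 2-fold change 570 and 272. DESeq2 gave 1435 and 777. On TPM, limma gave 973 and 1986 with 1 added (32.9% higher), 946 and 1453 with 0.1 added (39.4%), and 660 and 1151 without a filter (36.4%). In these fits the median of all tested genes was -0.79, -0.95 and -0.14, so the balance of higher and lower calls depends on the scale. With all 17 libraries sharing 1 estimate of the spread, 118 and 66 genes were called, of which 115 and 63 were among those called from 7; the cause was not tested. Leaving out 1 library gave 424 to 839 higher and 183 to 375 lower genes.

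With the replicate number as a block, 187 genes were higher and 75 lower. The labels do not tie equal numbers to a fish or day, and the deviations of same-numbered libraries correlated at 0.082, -0.051 and 0.013, so the numbers were not taken as pairs.

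A set of 156 tested genes was chosen by the naming rule or for a difference given in the text. It includes uncalled genes, such as cxcr4b, b2m and ccr9a, so lost calls are not shares of 156. With all 17 libraries in the fit 77 of its called genes lost their call, and with the block 69. The loss was 3 with DESeq2 and 12 to 30 when 1 library was left out. None of those called changed direction. Uncalled differences did in 3 cases: cxcr4b and b2m were at -0.54 and -0.46 in the limma fits on TPM, and ccr9a ranged from -0.74 without T cell replicate 3 to 0.26 without T cell replicate 1. Depth limits genes near 0: the floor of 3 counts over the group was 0.0636 CPM in MLCs and 0.0502 CPM in T cells, and floors cover counting error only, while intervals of log2 differences include the spread between libraries.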

Other observations

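Several abundant genes outside the gene lists rose in MLCs; they were chosen after their values were seen. Il12bb, a p40 subunit shared by interleukin-12 and interleukin-23, had 815, 2596, 1312 and 1004 CPM in the 4 MLC libraries, against 0.204, 0 and 0 CPM in the 3 T cell libraries (adjusted p = 0.000707 in edgeR's quasi-likelihood test). Pou2f3, a transcription factor that in mammals specifies tuft and other chemosensory cells, had 261, 446, 352 and 468 CPM in MLCs against 0.0511, 0 and 0 CPM in T cells (adjusted p = 0.000426). Its mean level was 169.8 ± 35.2 TPM in MLCs, 0.507 ± 0.729 TPM in cLCs (SD, n = 4 each) and 4.06 ± 7.03 TPM in keratinocytes (n = 3). Ptgs2b, an inducible cyclooxygenase, had 380.4, 4169.8, 711 and 453 CPM in MLCs against 1.07, 0 and 0 CPM in T cells (adjusted p = 0.0124). Chia.6, an acidic chitinase gene, had 2326, 4331, 2735 and 1889 CPM in MLCs against 6.08, 0 and 0 CPM in T cells (adjusted p = 0.0261), and its call was lost without MLC replicate 2 or 4. Gm2a, a lysosomal lipid-transfer protein gene, had 2687, 4702, 3286 and 2839.5 CPM in MLCs against 28.6, 31.4 and 42.7 CPM in T cells (adjusted p = 0.000447). The ferritin heavy chain gene fth1a had 6994, 19369.7, 8536 and 8026 CPM in MLCs against 432, 222 and 142 CPM in T cells (adjusted p = 0.00259). All 6 genes were above every T cell library in every MLC library, as were 14.4% of all tested genes. Since the groups did not overlap at 1018 of the 1020 called genes, this adds nothing to their calls.

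On the T cell side, cebpb, a factor best known from myeloid cells and inflammation, was abundant in the T cell libraries and was not called. It had 233, 17.6, 0 and 9.05 CPM in the 4 MLC libraries, against 7109, 6650.5 and 6377 CPM in the 3 T cell libraries, with an adjusted p of 0.0746. The groups did not overlap, and the MLC libraries ranged from 0 to 233 CPM. In the other groups it averaged 6235 ± 3671 TPM in cLCs and 13157 ± 8769 TPM in neutrophils (SD, n = 4 and 3), and the T cell libraries averaged 10563 ± 328 TPM. Pde4ba, a cyclic AMP phosphodiesterase gene, had 983, 525, 429.9 and 189.9 CPM in MLCs against 3295, 2646 and 3298 CPM in T cells (adjusted p = 0.0254), and its call was lost without MLC replicate 2 or 3 or T cell replicate 2 or 3.

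Markers of other cell types mostly had too few counts to test. Among fibroblast and osteoblast markers both tested genes rose, runx2a at 17.9, 54.3, 4.43 and 59.3 CPM in MLCs against 0.153, 0 and 0 CPM in T cells and thy1 at 2046, 7764, 2585 and 1991 CPM in MLCs against 7.67, 0 and 0 CPM in T cells (adjusted p = 0.032 and 0.0336), while 11 of 18 markers had 0 counts in every T cell library and 3 of 18 in every MLC library. The runx2a call was lost without MLC replicate 1, 2 or 4 or T cell replicate 2 or 3, and the thy1 call without any library but T cell replicate 1. Stard10, listed with mucous and club cells, had 129, 219.7, 188 and 247 CPM in MLCs and 0 counts in T cells (adjusted p = 0.000472). Of 3 tested endothelial markers, sox7 rose, at 21.9, 78.6, 73.9 and 7 CPM in MLCs and 0 counts in T cells, and fli1b fell, at 0.211, 0, 0 and 0 CPM in MLCs against 130.2, 141 and 134 CPM in T cells (adjusted p = 0.0113 and 0.000835). The sox7 call was lost without MLC replicate 2. Of 4 tested B and NK cell markers, ccl38.6 fell, and of 7 neutrophil markers srgn fell. Of 1 tested erythrocyte and 4 tested ionocyte markers edgeR and DESeq2 called 0, 0 and 2 of them had an unadjusted p below 0.05 in edgeR, and limma on the TPM scale called 1 ionocyte marker lower. No pigment cell marker was tested.

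Ribosomal protein genes, chosen after their values were seen, lay below 0 on the log2 scale for 74 of 78 tested genes, with a median of -0.95. EdgeR called 0 of them, 10 had an unadjusted p below 0.05, DESeq2 called 0, and limma on the TPM scale called 51 lower, on which the median of all genes was -0.79. Their summed level was 58233, 24467, 15087 and 12927 CPM in the MLC libraries and 80461, 41833 and 44609 CPM in the T cell libraries, so MLC replicate 1 lay above T cell replicates 2 and 3.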
